A study of Saccharomyces cerevisiae with 12 samples.

Results

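The genes for the proteins of the cytosolic ribosome were examined in budding yeast treated with methyl methanesulfonate (MMS), an agent that alkylates DNA and RNA. They were taken by name from a table of read counts per gene: all symbols of the form RPL or RPS with a number and at most a final A or B, and the 5 stalk genes RPP0, RPP1A, RPP1B, RPP2A and RPP2B. This gave 137 genes of the 7109 in the table, with 76 genes of the large subunit, 56 of the small subunit and 5 of the stalk. They encode 78 proteins, of which 59 have an A and a B gene (a paralog pair) and 19 have 1 gene. All 137 passed the filter on low counts.

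Poly(A) RNA had been sequenced from 4 groups of 3 libraries, labelled as biological replicates. All strains had the BY4741 background, an auxotrophic laboratory strain, and were taken from rich medium (YPD) at a density (OD) near 0.5. The groups were wild type without treatment, wild type after 90 min in MMS at 30 °C, and a ∆hel2 strain without treatment and after the same MMS treatment. Hel2 is a ubiquitin ligase that marks ribosomes which have run into each other on an mRNA. The labels give no dose of MMS, and do not say whether the replicates were separate cultures or the deletion strain 1 clone, so p-values measure the spread between these libraries.

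Each ribosome needs all of these proteins in balance, and growing yeast devotes a large part of its mRNA to them. Their genes are switched together by the factors Rap1, Fhl1, Ifh1 and Sfp1, under control of the nutrient kinases TORC1 and protein kinase A, and are turned down in many stresses. Most pairs come from the whole genome duplication of the yeast ancestor, and in most pairs the proteins are identical or nearly so.

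The libraries held 36472686 to 53638964 counts. The deletion libraries held 19 to 39 counts of HEL2, against 928 to 2431 in wild type. The a-mating type gene STE2 had 18644 to 31186 counts and the alpha-type gene STE3 had 89 to 511. The other a-type genes checked had 14474 to 27724 (MFA1), 32333 to 52934 (MFA2) and 3698 to 12104 (BAR1). Of the other alpha-type genes, MF(ALPHA)1 had 38 to 98 and MF(ALPHA)2 had 187 to 589. SAG1, also alpha-type, went against them, with 1581 to 2057 in untreated and 3388 to 4731 in treated wild type. In the deletion strain SAG1 had 1875 to 2073 untreated and 4846 to 6021 treated. The marker LEU2 had 2 to 28 counts in the wild type and 19374 to 28105 in the deletion strain, so the strains differ at LEU2 too. URA3 had 378 counts in the MMS-treated wild type library 2 and 2 to 12 in the other 11. Without that library 95 of the ribosomal protein genes passed for the difference of the MMS effects, in place of 96. The MMS-treated wild type library 1 stood apart over all genes: the SD of its log2 deviation from the other libraries of its group was 0.493, against 0.256 to 0.374 for the other 11.

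Some of the 137 genes could be counted poorly. For 16 of them, the description of another line in the table, a dubious open reading frame, names an overlap. The 5 lowest genes in untreated wild type were all among these 16: RPL36B, RPL43A, RPL22A, RPL33A and RPL39, with mean counts of 244.7, 292.7, 326.7, 336.0 and 371.0. The median over the 16 was 8192 counts, against 65747 over the other 121. The overlapping lines themselves held 0 to 159 counts a library. How the counting treated reads of overlapping genes or of close paralogs is not given in the sources used here, and its part in these low counts was not tested. The level of a gene with an overlap, and the share of its pair, may therefore say little about its mRNA. There are 10 pairs with such a member, and 49 without. Among the genes without a paralog, RPL10, RPL28, RPL39, RPP0 and RPS2 have an overlap.

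Ribosomal protein genes took 24.02, 26.2 and 24.3% of all counts in untreated wild type libraries 1, 2 and 3. With MMS they took 6.83, 8.69 and 7.55%. The deletion strain had shares of 23.3, 20.9 and 22.1% before and 4.24, 4.04 and 3.92% after treatment. The 4 groups did not overlap, and the treated deletion libraries had the lowest shares. Fewer cells with a transcript and less of it per cell cannot be told apart in such bulk RNA.

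**Figure D1:**
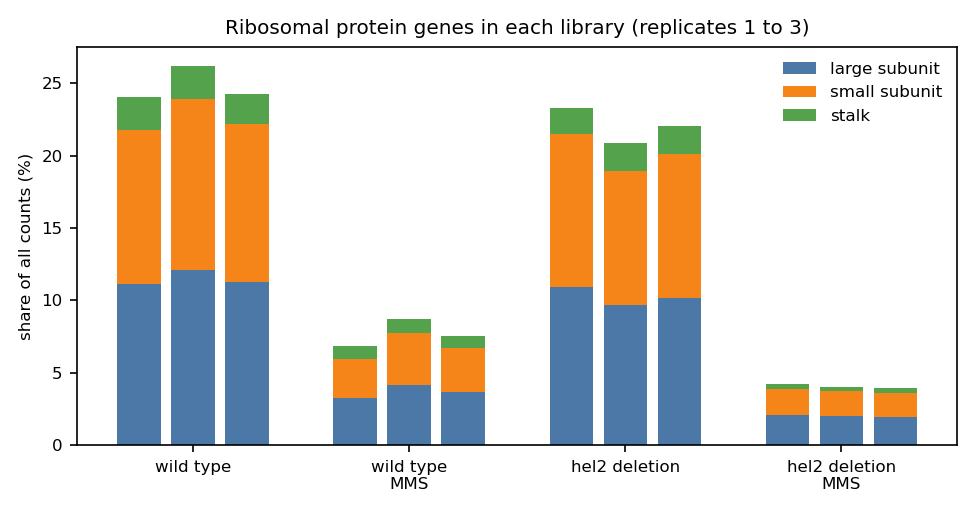
Share of all counts (%) on the genes of the large subunit, small subunit and stalk in each of the 12 libraries, 3 bars a group. The bars end at 24.02 to 26.2% in untreated wild type and at 3.92 to 4.24% in the treated deletion strain.

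The parts of the ribosome did not keep the same proportions. For each 100 counts on large subunit genes, small subunit genes had 95.9, 97.6 and 97.1 in wild type before treatment and 81.0, 87.0 and 84.7 after it. The deletion strain had 97.1, 95.1 and 97.8 before treatment and 88.6, 87.2 and 88.1 after it. All 6 treated libraries thus lay below all 6 untreated ones. The stalk, a flexible arm that recruits translation factors to the large subunit, moved differently between the strains. Its 5 genes made up 9.37, 8.63 and 8.56% of the ribosomal protein counts in untreated wild type and 13.3, 10.6 and 10.9% with MMS. They made up 7.78, 9.20 and 9.06% in the untreated deletion strain and 8.13, 8.22 and 8.36% in the treated one, so there the groups overlapped. The highest stalk share was in the library that stood apart.

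With MMS, the level of every ribosomal protein gene was lower in the wild type. Levels are relative to the other genes of a library, and amounts of mRNA per cell were not measured here. All 137 fell (34.2% of the 6463 genes tested fell), with a median log2 fold change of -2.26, against 0.02 over all genes tested. Of these, 134 fell at least 2-fold, 97 at least 4-fold and 7 at least 8-fold, against 14.5, 4.3 and 0.371% of all genes tested. In all 137, treated and untreated libraries did not overlap, as in 35.3% of all genes with lower values. The falls ran from -3.53 to -0.72. With 1 estimate of spread over all 12 libraries, the adjusted p-values are from edgeR's quasi-likelihood test.

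RPS30B had the largest fall. This gene for a small subunit protein had 759, 986 and 845 CPM (counts scaled to TMM-adjusted library sizes) untreated and 57.1, 90.7 and 76.9 with MMS, a log2 fold change of -3.53 ± 0.20 (SE, n = 3 per group, adjusted p = 5.95e-09). RPL9A, for a large subunit protein, fell by 3.21 ± 0.15 (adjusted p = 8.52e-10). The next changes were -3.16 for RPS29A, -3.14 for RPL35B, -3.11 for RPL29 and -3.07 for RPL31A. At the other end stood RPL4B, for a large subunit protein with a long extension into the ribosome. It had 3346, 3026 and 2999 CPM untreated and 2356, 1656 and 1666 with MMS, a change of -0.72 ± 0.15 (adjusted p = 0.000645). The groups did not overlap, but library 1 kept clearly more than the other treated libraries. RPL15B fell by 0.83, RPL9B by 0.94, RPL4A by 1.05, RPS9A by 1.17 and RPL22A, which has an overlap, by 1.21.

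The genes with special roles fell as well. RPL3, for a protein near the peptidyl transferase centre, fell by 1.78 ± 0.09. RPL25, which binds at the exit tunnel, fell by 2.84 ± 0.15, and RPL10, which joins the subunit late in its maturation, by 1.49 ± 0.08. RPL30, whose protein represses the splicing of its own transcript, fell by 2.32 ± 0.12. The genes RPS31, RPL40A and RPL40B, which encode fusions to ubiquitin, changed by -2.82 ± 0.14, -2.08 ± 0.11 and -2.85 ± 0.16. The stalk genes had smaller falls, with -1.41 ± 0.12 for RPP0, the base of the stalk, and -1.71 to -1.60 for RPP1A, RPP1B, RPP2A and RPP2B. The median was -2.19 over large subunit genes and -2.33 over small subunit genes. Over the 19 genes without a paralog it was -2.24, and over the 118 with one -2.26.

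The deletion strain had deeper falls with MMS for most genes. Of the 137 genes, 136 fell (36.2% of all genes tested fell), with a median of -3.03 against 0.06 over all genes, and RPL15B rose (39.2% of all genes rose). At least 8-fold falls were seen for 75 genes (2.35% of all genes tested). Treated and untreated libraries did not overlap in any of the 137 genes, with 136 lower and 1 higher, against 39.2 and 42.2% of all genes. RPL9A had the largest fall, from 1627, 1373 and 1514 CPM to 79.2, 76.5 and 65.9 CPM, a change of -4.35 ± 0.16 (adjusted p = 4.37e-11). RPS26B changed by -4.04, RPS22A by -4.01, RPS10A by -3.71, RPS9B by -3.70 and RPL26B by -3.65. The smallest falls were those of RPL22A (0.59, adjusted p = 0.00668), RPL22B (1.07), RPS9A (1.12), RPL41B (1.30) and RPL28 (1.41). Of these, RPL22A and RPL28 have an overlap. The call of RPL22A was lost under library-size scaling, with a change of -0.03. The median was -3.13 over the stalk genes, -3.002 over the large subunit and -3.07 over the small subunit.

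RPL15B encodes a large subunit protein, and its paralog RPL15A gave nearly all reads of the pair. RPL15B had 26.9, 28.9 and 31.9 CPM in untreated wild type and 12.8, 17.6 and 18.8 with MMS, a fall of 0.83 ± 0.14 (adjusted p = 0.000122). Deletion libraries had 34.1, 28.1 and 27.1 CPM untreated and 40.8, 42.1 and 45 with MMS, a rise of 0.52 ± 0.13 (adjusted p = 0.00348). Treated libraries lay below all untreated ones in the wild type and above all of them in the deletion strain. RPL15A fell in both strains, by 1.88 ± 0.13 and 2.15 ± 0.13.

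**Figure D2:**
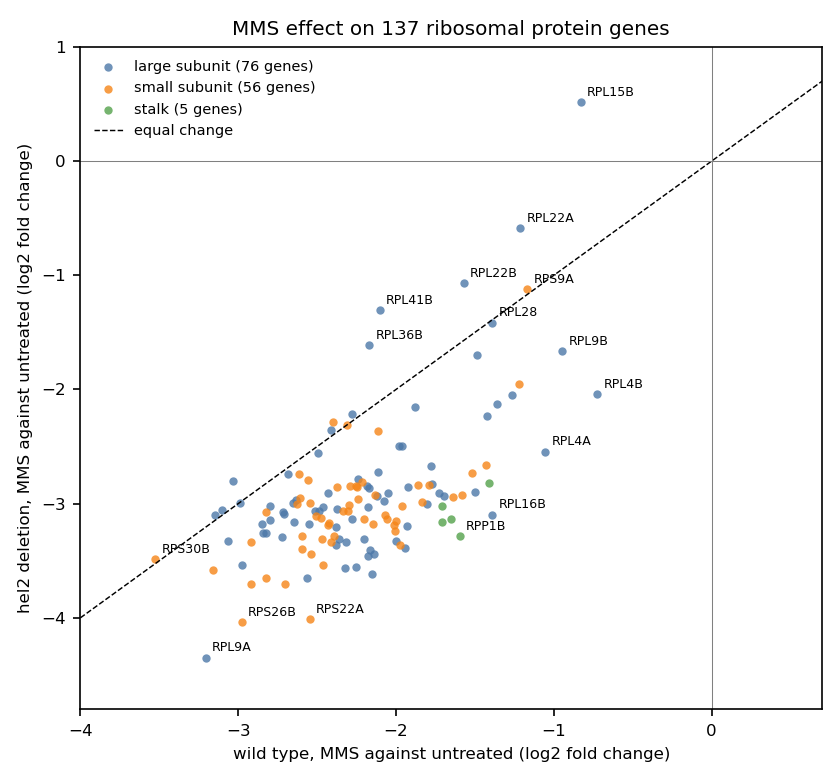
Log2 fold change with MMS of the 137 genes in the wild type (x axis) and in the hel2 deletion strain (y axis), coloured by part of the ribosome. Most points lie below the dashed line of equal change; RPL15B, at -0.83 and 0.52, is the sole gene above 0 on the y axis.

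The MMS effects of the strains were compared directly. The difference (the effect in the deletion strain minus that in the wild type) was below 0 and passed for 93 genes (21.5% of all genes tested did), and above 0 for 3 (18.6% of all genes). The median over the 137 genes was -0.76, against -0.01 over all genes. The largest differences were -1.71 ± 0.15 for RPL16B (adjusted p = 4.19e-06), -1.69 ± 0.18 for RPP1B, -1.49 ± 0.20 for RPL4A and -1.48 ± 0.18 for RPP1A. RPL14A and RPS22A followed, both at -1.46. All 5 stalk genes passed, with a median of -1.46. RPP1B, for an acidic protein of the stalk, had 5895, 5961 and 5268 CPM in untreated wild type and 2234, 1830 and 1604 with MMS. Deletion libraries had 3971, 4807 and 5239 CPM before treatment and 504, 465 and 466 after it. The treated deletion libraries were the lowest for all 5 stalk genes.

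The 3 genes above 0 were all B paralogs: RPL15B at 1.35 ± 0.19 (adjusted p = 0.000174), RPL41B at 0.80 ± 0.22 (adjusted p = 0.0125) and RPL22B at 0.50 ± 0.18 (adjusted p = 0.0428). RPL22B lost its call when any of 8 libraries was left out: wild type 2 or 3, treated wild type 1, deletion 2 or 3, or treated deletion 1, 2 or 3 (adjusted p = 0.0563 to 0.104). Of the 41 genes that did not pass, several named above for their falls had differences near 0. These were RPS30B (0.04), RPS9A (0.04), RPL35B (0.04), RPL29 (0.05) and RPL28 (-0.02), the last with an overlap. Without the treated wild type library that stood apart, 114 genes passed in place of 96.

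The genes of proteins that Hel2 is known to ubiquitinate were named for that role after their values had been seen. RPS20 had 2029, 2329 and 2246 CPM in untreated wild type and 371, 563 and 463 with MMS. Deletion libraries had 2310, 1931 and 2071 CPM before treatment and 283, 268 and 263 after it. Its effect differed between the strains by -0.72 ± 0.19 (adjusted p = 0.00847). The level of RPS20 was close in the untreated strains, whose libraries overlapped. RPS3 changed by -2.29 ± 0.11 in the wild type and -2.85 ± 0.11 in the deletion strain, a difference of -0.56 ± 0.15 (adjusted p = 0.0104). RPS7A differed by -0.91 ± 0.16 (adjusted p = 0.000816), while RPS7B fell by 2.31 ± 0.18 in both strains (difference 0.01 ± 0.24, adjusted p = 0.988).

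Without MMS, differences between the strains were small. Of the 137 genes, 128 had a value below 0 in the deletion strain, with a median of -0.24 against 0.01 over all genes. Of these, 19 passed as lower (3.33% of all genes tested did) and none as higher (5.25% of all genes). RPS28B had 907, 944 and 897 CPM in the wild type and 589, 617 and 679 in the deletion strain, a difference of -0.54 ± 0.09 (adjusted p = 0.00365). RPS21A followed at -0.51 ± 0.10 (adjusted p = 0.00691), then RPL30 at -0.47, RPS12 at -0.46 and RPL26B at -0.45. For RPS28B and RPS21A the libraries of the strains did not overlap, and they did not for 88 of the 137 genes, all lower (15.4% of all genes, with 16.6% higher). RPL30, RPS12 and RPL26B each lost their call without any 1 of wild type libraries 1 and 2 and deletion libraries 1 and 2 (adjusted p = 0.0529 to 0.104). The number that passed moved with the setting and the libraries. It was 47 with DESeq2, 11 under library-size scaling and 6 with a replicate block. It was 4, 3 and 10 without wild type library 1, 2 or 3, and 5 and 3 without deletion library 1 or 2. It was 51 without the treated wild type library that stood apart, and 12, 10 and 11 without treated deletion library 1, 2 or 3.

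Under MMS the deletion strain had lower relative levels of most of these mRNAs than the wild type. Here 115 of the 137 genes were lower (29.8% of all genes tested were) and 5 were higher (32% of all genes), with a median of -0.997 against 0.03 over all genes. In 111 genes the libraries did not overlap with the deletion strain lower (32.1% of all genes), and in 6 with it higher (36.2%). The level was at least 2-fold lower for 68 genes (7.21% of all genes tested). The lowest were RPP1B at -1.98 ± 0.13, RPL16B at -1.92 ± 0.11, RPL14A at -1.88 ± 0.12, RPS22A at -1.84 ± 0.11, RPL1A at -1.79 and RPP1A at -1.77. Under library-size scaling 91 were lower and 6 higher, and the median was -0.67.

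The 5 higher genes were RPL15B (1.37 ± 0.14), RPL22A (0.61 ± 0.17), RPL22B (0.52 ± 0.13), RPL41B (0.49 ± 0.16) and RPS9A (0.28 ± 0.09). RPL41B had 33.3, 42.8 and 41.9 CPM in the treated wild type and 60.4, 51.8 and 53.6 in the treated deletion strain. Its groups did not overlap (adjusted p = 0.0167), but the call was lost without treated wild type library 1 (adjusted p = 0.101) or treated deletion library 1 (adjusted p = 0.0627). RPS9A had 67.8, 73.2 and 71.3 against 93.8, 81.8 and 81.8 CPM (adjusted p = 0.0161), with its call lost without treated deletion library 1 (adjusted p = 0.08). In the comparison of the untreated strains none of these 5 had passed.

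The A and B genes of a pair were compared by the ratio of their counts within a library, which needs no scaling between libraries. The ratios are not corrected for gene length, so shares describe reads, and reads that fit both genes of a pair may have been dropped or placed with either. Before treatment the shares differed widely. The highest A shares in untreated wild type were those of RPL15 (98.8%), RPL36 (95.5%) and RPL7 (95.5%), and the lowest those of RPL43 (0.442%), RPL33 (1.10%) and RPS27 (4.06%). All of these except RPL15 have an overlapped member, which was the one with fewer reads.

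In the wild type, the ratio changed with MMS in 46 of 59 pairs, which is 78%. The same test over all 526 paralog pairs of the genome called 73.8%, so the members' share is near the background. The size of the change was smaller: a median of 0.30 (log2, in either direction) over the 59 pairs, against 0.70 over all 526. A fell more than B in 24 of the 46 and less in 22. The deletion strain had a changed ratio in 47 pairs (79.7%, against 81% of all pairs), 27 with A lower against B and 20 with A higher, with a median of 0.37 against 0.83. Both genes fell in 59 of 59 pairs in the wild type and in 58 in the deletion strain. Among the pairs that passed, reads moved towards an equal share in 26 and away from it in 20 in the wild type, and in 33 and 14 in the deletion strain. This tally was not made over all 526 pairs, so it cannot be called particular to ribosomal protein pairs.

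**Figure D3:**
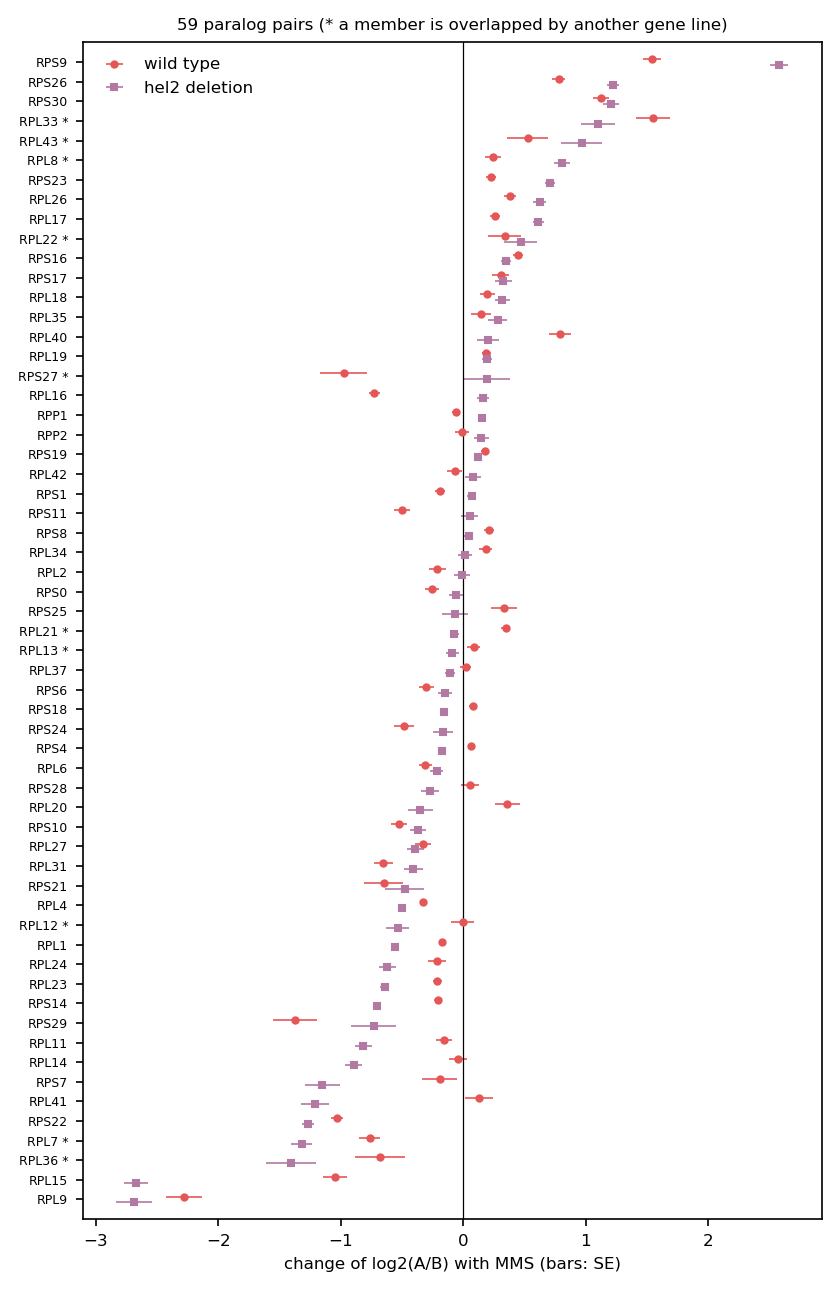
Change of log2(A/B) with MMS for the 59 pairs, in the wild type (circles) and in the hel2 deletion strain (squares), with SE bars. Negative values mean that A fell more than B; RPL9 and RPL15 are lowest and RPS9 highest in the deletion strain.

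RPL9 was the pair whose ratio moved most in the wild type. RPL9A gave 65.5, 67.9 and 67.4% of the reads of the pair without MMS and 23.9, 34.5 and 30.4% with it. The log2 ratio fell by 2.28 ± 0.15 (limma, adjusted p = 2.62e-08). With the deletion, the share of RPL9A went from 70.8, 66.5 and 67.3% to 25.3, 25.8 and 24%, a change of -2.69 ± 0.15 (adjusted p = 4.48e-09). In both strains the larger share thus passed from A to B in all libraries. RPL9B itself fell, by 0.94 ± 0.08 in the wild type and 1.66 ± 0.08 in the deletion strain. The difference between the strains did not pass (-0.41 ± 0.21, adjusted p = 0.126).

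RPS9, for a small subunit protein of the decoding accuracy region, moved the other way. RPS9A, the minor gene, gave 5.82, 5.54 and 6.08% of the reads in untreated wild type and 15.8, 14.1 and 15.9% with MMS, a change of the log2 ratio of 1.54 ± 0.07 (adjusted p = 1.09e-09). Deletion libraries gave 9.12, 8.43 and 8.25% without and 36.4, 34.9 and 36.7% with MMS, a change of 2.58 ± 0.07 (adjusted p = 4.87e-12). The 4 groups did not overlap. The change was larger in the deletion strain by 1.04 ± 0.10 (adjusted p = 7.62e-06). The strains already differed without MMS, by 0.61 ± 0.07 (adjusted p = 8.49e-05). By level, RPS9A fell by 1.17 ± 0.09 and 1.12 ± 0.09 (difference 0.04 ± 0.13, adjusted p = 0.803). RPS9B fell by 2.71 ± 0.12 in the wild type and by 3.70 ± 0.12 in the deletion strain, from 2032, 1791 and 2137 CPM to 164, 152 and 141.

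**Figure D4:**
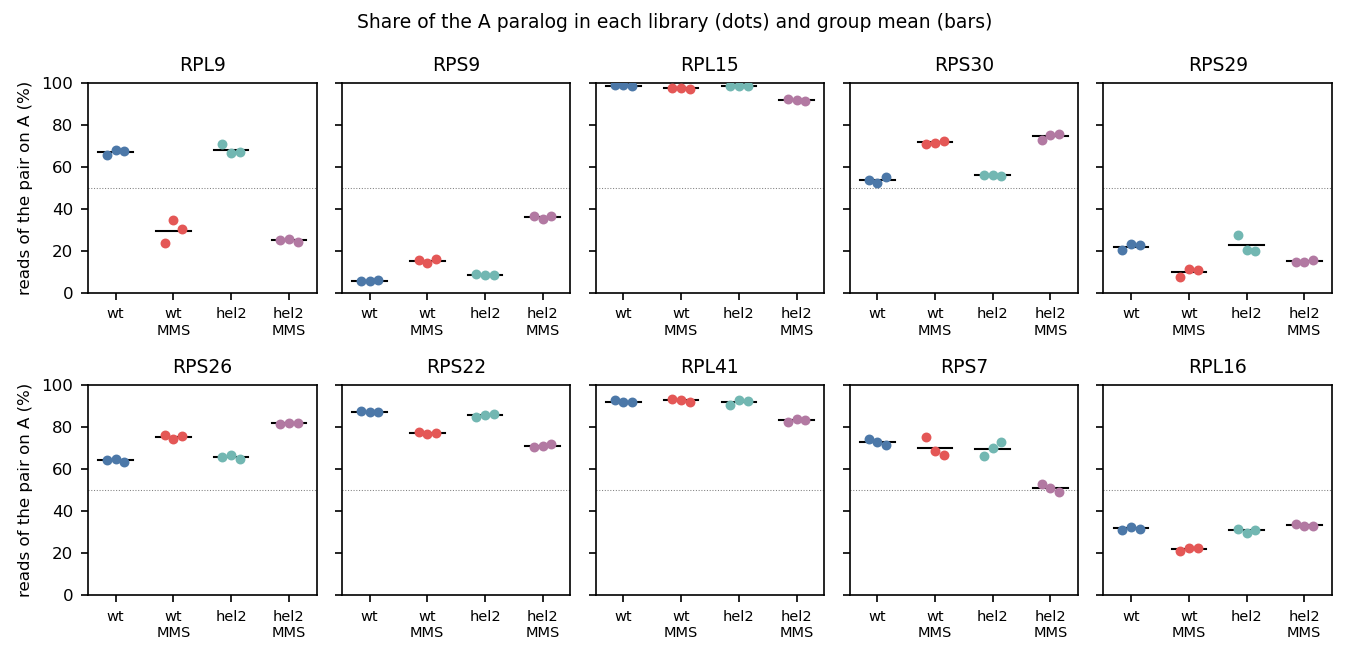
Share of the reads of a pair that fell on the A gene (%), in each library (dots) with the group mean (bar), for 10 pairs. In RPL9 the share dropped below 50% with MMS in both strains, and in RPS9 it rose to 34.9 to 36.7% in the treated deletion strain.

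RPL15 changed in both strains and more in the deletion strain. The share of RPL15A was 98.8, 98.9 and 98.7% in untreated wild type and 97.6, 97.7 and 97.2% with MMS. Deletion libraries had 98.6, 98.6 and 98.7% untreated and 92.3, 92 and 91.4% with MMS. The log2 ratio changed by -1.05 ± 0.10 (adjusted p = 7.61e-07) and -2.67 ± 0.10 (adjusted p = 5.99e-11), and the difference of -1.62 ± 0.14 (adjusted p = 2.04e-06) was the largest of the 59 pairs.

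**Figure D5:**
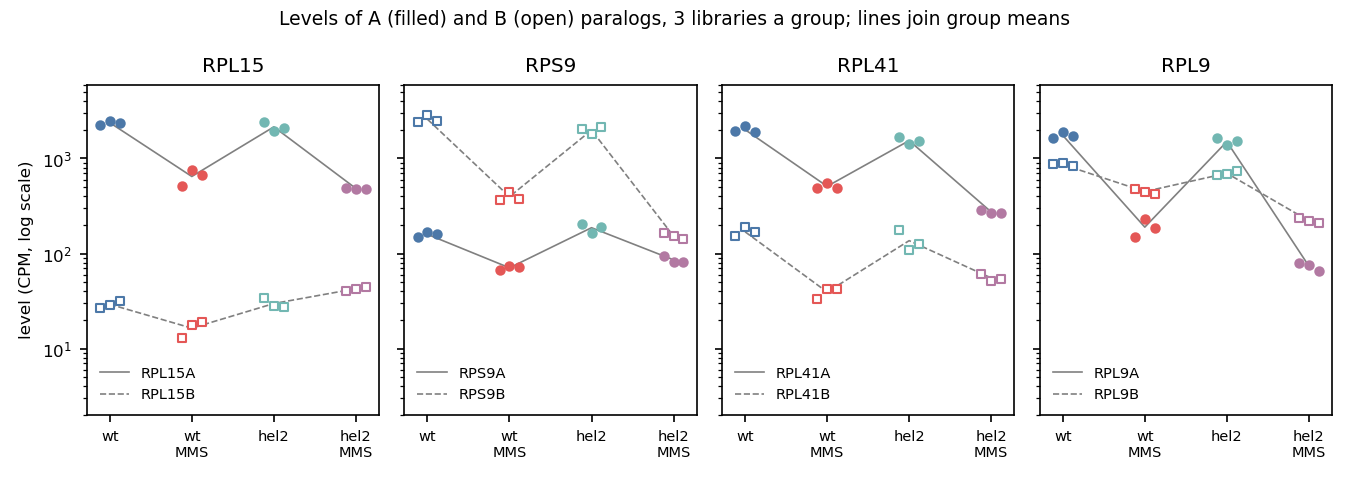
Level (CPM, log axis) of the A and B genes of 4 pairs in every library; filled circles are A, open squares B, and lines join group means. RPL15B rises with MMS in the deletion strain from 29.8 to 42.6 CPM on average while RPL15A falls, and the RPL9A and RPL9B lines cross in both strains.

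Other pairs shifted by at least 2-fold in the wild type. RPS30, for a small subunit protein whose human counterpart is made as a fusion with a ubiquitin-like protein, lost more of B. RPS30A went from 53.9, 52.2 and 55.1% to 71.1, 71.5 and 72.4% (1.12 ± 0.06, adjusted p = 5.66e-09), and in the deletion strain from 56.3, 56.0 and 55.7% to 72.9, 75.1 and 75.8% (1.21 ± 0.06). Their difference did not pass (0.08, adjusted p = 0.458). RPS29A dropped from 20.4, 23.1 and 22.6% to 7.54, 11.5 and 10.8% (-1.38 ± 0.18). RPS29A in the deletion strain changed by -0.73 ± 0.18, with library 1 high among the untreated at 27.8%. RPS22A, the major gene of its pair, went from 87.7, 87.2 and 87.3% to 77.7, 76.9 and 77% (-1.03 ± 0.05), and by -1.27 ± 0.05 in the deletion strain. RPL33, with an overlapped A gene at 1.09 to 3.58% of the reads, changed by 1.55 ± 0.14 and 1.10 ± 0.14.

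With the deletion, 11 of the 59 pairs passed with at least a 2-fold change of the ratio, and 7 did in the wild type. Over all 526 paralog pairs, 42.2 and 36.9% did. Beyond RPL9, RPL15, RPS9, RPS22, RPS30 and RPL33 these were RPS26 (1.22 ± 0.05), RPL41 (-1.21 ± 0.11), RPS7 (-1.15 ± 0.15), RPL7 (-1.32 ± 0.09) and RPL36 (-1.41 ± 0.21). RPL7 and RPL36 have an overlapped B gene. RPS26A gave 65.85, 66.53 and 64.98% in the untreated deletion strain and 81.7, 81.8 and 81.8% in the treated one. Wild type had 64.3, 64.8 and 63.4% untreated and 76.1, 74.2 and 76.0% with MMS, so RPS26 passed there too (0.78 ± 0.05, limma, adjusted p = 2.12e-08). RPL41, whose product is among the shortest known proteins, had 92.7, 92 and 92% on RPL41A in untreated wild type and 93.6, 92.8 and 92.2% with MMS. This did not pass (0.13 ± 0.11, adjusted p = 0.315). In the deletion strain RPL41A gave 90.6, 92.9 and 92.3% untreated and 82.6, 83.8 and 83.2% with MMS. The MMS effects of the strains differed by -1.34 ± 0.16 (adjusted p = 2.76e-05). RPS7A likewise gave 74.6, 73.1 and 71.4% in untreated wild type and 75.2, 68.4 and 66.9% with MMS (adjusted p = 0.245). In the deletion strain it gave 66.3, 70.2 and 72.7% untreated and 53.2, 50.9 and 49% with MMS. The MMS effects of the strains differed by -0.96 ± 0.21 (adjusted p = 0.00256).

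The ratio responded differently to MMS between the strains in 33 of 59 pairs (55.9%, against 48.7% of all pairs). Of the 36 pairs that passed in both strains, 33 moved in the same direction. The other 3 moved in opposite directions: RPL16 (-0.73 ± 0.05 in the wild type and 0.16 ± 0.05 in the deletion strain), RPL20 (0.36 ± 0.10 and -0.35 ± 0.10) and RPS18 (0.08 ± 0.03 and -0.16 ± 0.03). RPL16A gave 31.2, 32.6 and 31.5% of its pair in untreated wild type and 21, 22.4 and 22.4% with MMS. Deletion libraries gave 31.5, 29.7 and 31.1% without and 34, 33 and 32.7% with MMS. RPS27, with an overlapped A gene, changed by -0.98 ± 0.19 in the wild type and 0.19 ± 0.19 in the deletion strain, where it did not pass (adjusted p = 0.36). RPL13 and RPL42 passed in neither strain. The larger share switched between the genes in all libraries for RPL6, RPL9, RPL23 and RPL27 in the wild type. In the deletion strain it did for 8 pairs, RPL6, RPL8, RPL9, RPL11, RPL26, RPL27, RPS18 and RPS23. Neither these switches nor the shared directions were counted over all 526 pairs. RPL11A, for a protein that enters the ribosome with Rpl5, gave 57.3, 58.3 and 58.6% in the untreated deletion strain and 43.4, 45.1 and 43.5% in the treated one. Wild type had 60.1, 59.1 and 59.2% untreated and 59.9, 55.2 and 55.4% with MMS, which did not pass (-0.16 ± 0.07, limma, adjusted p = 0.0528). RPL8 has an overlapped B gene.

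RPS14 is a pair in which the protein regulates the splicing of RPS14B. RPS14A gave 85.5% in each of the untreated wild type libraries and 83.8, 83.8 and 83.3% with MMS, a small shift (-0.21 ± 0.03, adjusted p = 5.19e-05). In the deletion strain it gave 85.5, 85.7 and 85.7% untreated and 78.1, 78.7 and 78.8% with MMS. In the stalk, the ratio of neither RPP1 (-0.06 ± 0.03, adjusted p = 0.107) nor RPP2 (-0.01 ± 0.06, adjusted p = 0.882) passed in the wild type. In the deletion strain both passed with 0.15.

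Between the strains, the ratio differed in 9 pairs without MMS (15.3%, against 21.1% of all pairs) and in 43 with MMS (72.9%, against 68.6%). Without MMS, RPS9 had the largest difference, followed by RPS21 (-0.50 ± 0.16), RPL7 (-0.35 ± 0.09), RPS28 (0.28 ± 0.07), RPL34 (0.24 ± 0.06) and RPL26 (0.22 ± 0.05). RPS21 (adjusted p = 0.0423) lost its call without any 1 of the 6 untreated libraries except deletion library 3. The same held without treated deletion library 2 (adjusted p = 0.0564 to 0.137 over these fits). The RPS21 call was also lost without the trend and robust options of limma (adjusted p = 0.0615). Adjusted over pairs named A and B alone, RPS21 had an adjusted p of 0.06. RPL7 lost its call without wild type 1 or deletion 1 (adjusted p = 0.0573 and 0.0515). RPS28 lost its call without wild type 1, wild type 3 or deletion 3 (adjusted p = 0.0657, 0.0587 and 0.0609). Without wild type library 1 the count was 4, and without deletion library 1 it was 5; without wild type library 2 or 3 it was 6. With MMS the largest differences were those of RPL15 (-1.80 ± 0.10), RPS9 (1.65 ± 0.07), RPL41 (-1.39 ± 0.11), RPS27 (1.23 ± 0.19), RPS7 (-1.18 ± 0.15) and RPL7 (-0.90 ± 0.09).

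Genes that act on ribosomal proteins were examined beside them. Of 14 regulators of ribosomal protein genes, 7 fell and 4 rose with MMS in the wild type (median -0.27), where 34.2% of all genes tested fell and 35.6% rose. Under library-size scaling 5 fell and 7 rose (median 0.05). IFH1, the coactivator of these genes, had 56.9, 63.7 and 61.8 CPM untreated and 17.9, 30.4 and 30.5 with MMS, a fall of 1.21 in log2. The groups did not overlap, and the lowest value was in the library that stood apart. FHL1, which tethers Ifh1, fell by 1.16. CRF1, a corepressor that competes with Ifh1, rose by 1.16, and LST8, a TORC1 subunit, rose by 0.91. In the deletion strain 8 fell and 4 rose (36.2 and 39.2% of all genes), but none fell and 6 rose under library-size scaling, where FHL1 did not pass either (-0.31, against -0.87 as reported). IFH1 had 66.1, 57.0 and 60.7 CPM without and 47.2 to 50.6 with MMS there and did not pass (-0.31, and 0.24 under library-size scaling). The MMS effect on IFH1 differed between the strains by 0.89, and that on HMO1, a protein bound at many of these promoters, by 0.78. Both were higher in the treated deletion strain, where most ribosomal protein genes were lower, than in the treated wild type (by 0.90 and 0.42). Without MMS, HMO1 was lower in the deletion strain (-0.36, edgeR, adjusted p = 0.00336), a call lost under library-size scaling (-0.255, adjusted p = 0.198). IFH1 did not pass without MMS (0.01). Between the strains, 1 regulator was lower and 1 higher without MMS (3.33 and 5.25% of all genes). With MMS 4 were lower and 4 higher (29.8 and 32% of all genes), but 0 and 8 under library-size scaling. The MMS effect differed downward for 2 and upward for 2 (21.5 and 18.6% of all genes), but for 0 and 4 under library-size scaling.

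Of 8 dedicated chaperones, which hold single ribosomal proteins until assembly, all 8 fell in the wild type (median -1.64) and 7 in the deletion strain (median -1.62), against 34.2 and 36.2% of all genes. Under library-size scaling 7 fell in each strain, with medians of -1.30 and -1.07. TSR2, for Rps26, fell by 2.12 and 2.20, and RRB1, for Rpl3, by 2.09 and 2.55. SYO1, for Rpl5 and Rpl11, changed by -1.96 and -2.81. Of 9 ribosome-bound factors, 8 fell and BTT1 rose in both strains, with medians of -1.75 and -2.31, against 34.2 and 36.2% of all genes lower and 35.6 and 39.2% higher. The counts were equal under library-size scaling, with medians of -1.42 and -1.75. SSB1 and SSB2, Hsp70 chaperones of nascent chains, fell by 2.04 and 1.67 in the wild type and by 3.59 and 3.32 in the deletion strain. ASC1, a core scaffold of the small subunit not matched by the name rule, changed by -1.498 and -2.79.

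Between the treated strains, 4 chaperones were lower and 1, YAR1 for Rps3, was higher in the deletion strain, against 29.8 and 32% of all genes. Under library-size scaling 2 were lower and 1 higher, and the median was -0.12 in place of -0.45. Without MMS 1 was lower (3.33% of all genes). The MMS effect differed downward for 2 and upward for 1 (21.5 and 18.6% of all genes), but for none under library-size scaling. Of the ribosome-bound factors, 7 were lower in the treated deletion strain (29.8% of all genes) and 1 in the untreated one (3.33%), and the MMS effect differed downward for 5 (21.5%). These counts were 4, 0 and 4 under library-size scaling, where the median between the treated strains was -0.26 in place of -0.60. The largest of these differences were -1.65 for SSB2, -1.55 for SSB1 and -1.30 for ASC1.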

How the data were processed

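Poly(A) RNA of 12 libraries was measured as read counts per gene. The authors deposited raw counts, with no normalization. STAR 2.5.1a, Subread, featureCounts 1.4.6-p5 and Salmon are named in the submitters' processing notes, without their roles. The genome build, whether counting used strand, and what was done with reads that align to several genes are not stated there.

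The 7230 lines were reduced to 7109 identifiers, since 97 identifiers stood on several lines with the same counts. Columns were matched to samples by name. Replicates were compared first: no pair of replicates of a group agreed within sampling noise (lowest chi-square per degree of freedom 60.4). Genes were filtered with filterByExpr, which left 6463, scaled by TMM and tested with edgeR 4.0.16 (R 4.3.3; robust quasi-likelihood fit over all 12 libraries, no replicate block). P-values were adjusted by the Benjamini-Hochberg method over all 6463 genes, with a threshold of 0.05. The standard error was taken as the size of the log2 fold change over the square root of F. CPM values were computed with TMM scaling and describe changes of a gene; they are not corrected for gene length.

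The log2 ratio of A to B (pseudocount 0.5) was tested with limma 3.58.1 (moderated, with trend, robust) and adjusted over 526 paralog pairs. These pairs are the 525 that gene descriptions in the table name as products of whole genome duplication, of which 56 are ribosomal protein pairs, and the ribosomal protein pairs by symbol. This background was chosen after the table had been examined, in place of pairs set by protein identity, since no protein sequences were used here. The plan for that case had been pairs of symbols that share a stem and end in A and B, run here as an alternative. Of the named pairs, only RPS21 between the untreated strains lost its call there.

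Named genes are the 6 largest and 6 smallest changes per comparison, the 6 pairs that changed most, and a list of genes with known roles. The members and lists were chosen with earlier results of these data known. The shared replicate numbers did not establish a pairing: of 18 correlations between libraries with the same number, 1 was over 0.1 (range -0.382 to 0.242). The tests were also run on simulated counts, where a small part of the genes changed in random directions in a single group, with a fixed spread. This setting did not cover changes in most genes, or a joint fall of a class with a large share of the counts. The alternatives were other scalings, DESeq2 1.42.0, no filter, a replicate block, fits of the compared libraries alone, other settings of the ratio test, and leaving out each library.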

Additional observations from a re-analysis of the deposited data

Results flagged for a closer look

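The effect of MMS differed between the strains, by the test of the difference itself, for 96 ribosomal protein genes and for the A to B ratio of 33 pairs. Of the genes, 93 differed downward and 3 upward, against 21.5 and 18.6% of all genes tested. The share of pairs (55.9%) was near that of all paralog pairs (48.7%). Among the genes, the difference (deletion strain minus wild type, log2) was -1.71 for RPL16B, -1.69 for RPP1B, -1.49 for RPL4A, -1.48 for RPP1A, and -1.46 for both RPL14A and RPS22A. It was 1.35 for RPL15B, 0.80 for RPL41B and 0.50 for RPL22B, and the last of these calls was lost under library-size scaling (adjusted p = 0.0569) and with a replicate block (adjusted p = 0.0702).

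Among the pairs, the difference of the ratio was -1.62 for RPL15, -1.34 for RPL41, 1.17 for RPS27, 1.04 for RPS9, -0.96 for RPS7, 0.89 for RPL16, -0.71 for RPL20 and -0.24 for RPS18. RPL16, RPL20 and RPS18 passed in both strains in opposite directions. The part of the treated wild type library that stood apart in these differences was not tested beyond leaving it out, with 114 genes and 40 pairs passing then.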

How the results depend on the processing

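Of the ribosomal protein genes and pairs named by the rule, none reversed its call under the alternatives run; the other members were followed only by their counts. The count of genes lower in the untreated deletion strain (19) moved most: it was 11 under library-size scaling, 47 with DESeq2 and 6 with a replicate block, and 3 to 51 when each library was left out. When each library was left out, the count of pairs there (9) ranged from 4 to 11, genes with a higher MMS effect (3) from 2 to 5, and genes higher in the treated deletion strain (5) from 3 to 5. The last count was 6 under library-size scaling. The cause was not tested. With the replicate block, 137, 137, 6, 119 and 95 genes passed for MMS in the wild type, MMS in the deletion strain, the deletion without and with MMS, and the difference, and the pairs were 46, 45, 7, 43 and 31. Library-size scaling moved the median of all genes from 0.02 to 0.33 for MMS in the wild type and from 0.06 to 0.61 in the deletion strain, and the members' medians to -1.94 and -2.48. The scaling changed the sign, with the reported or the rescaled fit passing, for SCH9 (0.192) in the wild type with MMS. It did so for HMO1 (0.501), ABF1 (0.048), SCH9 (0.188) and TOR2 (0.146) in the deletion strain with MMS. Between the treated strains it did so for RAP1 (0.176), SCH9 (0.011), TOR1 (0.28), MRS6 (0.294) and ZUO1 (0.025). Of these, SCH9 in the wild type, HMO1 in the deletion strain, and TOR1 and MRS6 between the treated strains had not passed as reported. Without the 16 overlapped genes, chosen after seeing the data, 121, 121, 17, 106 and 86 genes passed. The adjustment over pairs by protein identity was not run.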
